A study of Homo sapiens with 6 samples.

Results

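The genes described here encode the nucleoporins, the proteins of the nuclear pore complex. A list of 31 gene symbols defined them, with no threshold on a measured value. Of these, 30 were found by symbol among the 57905 gene identifiers of the files and all 30 passed the filter on low counts, which 14398 genes passed in all. The identifier of POM121C in the annotation had no match, and POM121C was not analysed here. RNA-seq had been carried out on total RNA of NCI-H929 (H929), an established human multiple myeloma cell line, after an in vitro cleavage assay. Both groups held 5 μg of total RNA of this line, kept for 1 h at 37 °C in the same ATP-containing buffer and heated to 95 °C for 5 min. Libraries were made from the RNA that poly-T beads then retained. The 3 IRE1-treated samples contained 2 μg of recombinant human IRE1 (ERN1/IRE1a, amino acids 467 to 977) and the 3 control samples contained no enzyme. The assay used purified RNA, so no living cell, pore or transport was part of it, and the RNA came from 1 cell line.

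Nuclear pore complexes are large channels through the nuclear envelope, built from many copies of each nucleoporin arranged in stacked rings. Scaffold nucleoporins form the outer and inner rings, membrane nucleoporins anchor them, and nucleoporins with phenylalanine-glycine (FG) repeats fill the channel, where transport receptors bind on their way through. IRE1 is the endoplasmic reticulum stress sensor whose RNase cuts XBP1 mRNA and a set of other mRNAs, typically at a CTGCAG hexamer (written here with T for U) held in the loop of a hairpin.

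The hexamer was searched on the mRNA strand of each canonical transcript (it reads the same on both strands), and a window of 30 bases, the hexamer with 12 bases on each side, was folded. A hexamer counted as a hairpin site when the predicted fold left its base 3 (the G) unpaired in a loop of 5 to 11 bases on a stem with 3 base pairs or more, so that other bases of the hexamer could be paired in the stem. The whole hexamer lay in the loop in 2 of the 15 hairpin sites of members, and in 19.1% of the hairpin sites of all tested protein-coding transcripts. The hexamer was present in 29 of 30 members, SEH1L having none, and in 85.3% of the 12182 tested protein-coding transcripts. Members had 0.728 hexamers per kb, against 0.806 over those transcripts. Of the 111 hexamers in members, 87 were in coding sequence, 18 in the 3′ UTR and 6 in the 5′ UTR. Hairpin sites made up 15 of them (13.5%, against 18.6% of the hexamers of all those transcripts) and were found in 11 members (36.7%, against 40.4% of transcripts). Among transcripts of at least 5000 bases, 9 of 16 members had a hairpin site, against 59.2% of 3378 genes. The hairpin sites of the members that were lower after IRE1 are shown, because the results turn on these members, with the site of NUP93 for comparison, a member that was not lower. In the windows of the members that were lower at least 1 base of the hexamer was paired in the stem, and in that of NUP93 none was. Capitals mark the hexamer, sequences are 5′ to 3′ on the mRNA strand and positions are in GRCh37.
POM121: aaacagggccctCTGCAGcccatcctttcc
NUP153, first site: atttcagtttgcCTGCAGccaatggtttat
NUP153, second site: ccaaatcttcctCTGCAGgttttagctttg
NUP98: gtctggatttgcCTGCAGagtttggataaa
AHCTF1: ggattcctggggCTGCAGatgatagcaaat
NUP160: ggaattcacagtCTGCAGcattgggactgc
NUP93: gggctttatggcCTGCAGgtaaggcccctt

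The POM121 window was at chr7:72417985-72418014 on the plus strand, in the 3′ UTR within exon 13 of 13. The NUP153 windows were at chr6:17661964-17661993 and chr6:17629357-17629386 on the minus strand, in coding sequence of exons 11 and 18 of 22. The NUP98 window was at chr11:3696612-3696641 on the minus strand, in the 3′ UTR within exon 33 of 33. The windows of AHCTF1 and NUP160 lay in coding sequence and crossed an exon border, with hexamers at base 4115 and base 122 of the transcripts. The NUP93 window was at chr16:56883498-56883527 on the plus strand, in the 3′ UTR within exon 22 of 22. By the paper's account, a cut mRNA loses the reads upstream of the cut. The part upstream of the hexamer was 85.6% of the transcript in POM121, 30.5% and 59.6% in NUP153 and 94.3% in NUP98. It was 46.3% in AHCTF1, 2.31% in NUP160 and 91.6% in NUP93. NUP160 was at 86.8% of its control mean, and the part of its site in that was not tested. A match to the hairpin rule is a property of the sequence, and cleavage at these windows was not measured by the gene counts.

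The gene counts of the libraries ranged from 19615715 to 25678499. IRE1-treated replicate 1 stood apart from the other treated libraries, with a chi-square per gene of 5.91 and 9.04 against them, compared with 2.94 between treated replicates 2 and 3 and 2.03 to 2.70 between controls. BLOC1S1, a known IRE1 substrate, fell to 239 ± 33.0 normalised counts (SD, n = 3) from 614 ± 34.0 in the controls, a log2 fold change of -1.37 (edgeR adjusted p = 1.25e-06). XBP1 changed by -0.09 (edgeR adjusted p = 0.143). The paper, which compared exons, found fewer XBP1 reads upstream of the cleavage sites in IRE1-treated samples and similar numbers downstream. A count over the whole gene takes in both parts, so a small change of it does not show that an mRNA was left uncut. Of 8 plasma cell and myeloma markers all had at least 408 counts in every library, while MS4A1, CD14, LYZ and HBB had at most 9. CD3E, a T cell gene listed among the markers of other blood cells, had 890 to 1063 counts.

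In the comparison of IRE1-treated with control RNA, which asks which mRNAs lose reads after incubation with the enzyme, 10 of the 30 members were lower and 1 was higher at an adjusted p under 0.05 (edgeR quasi-likelihood test over all tested genes). The members that were lower were POM121, NUP153, NUP58, NUP98, AHCTF1, NUP210, NUP214, NUP160, NUP205 and NUP188, and the member that was higher was NUP37. These are 33.3% and 3.33% of the members, against a background of 12.4% of all tested genes lower and 10.3% higher. With library size alone in place of TMM scaling, 14 members were lower and 1 higher, and 2596 of all tested genes were lower and 683 higher, compared with 1781 and 1489 with TMM. The decreases were small, the largest being to 74.6% of the control mean. The median log2 fold change of the members was -0.10 and that of all tested genes was 0.0045. In 13 members every treated library lay below every control, against 20.0% of all tested genes, and in 4 every treated library lay above, against 19.1%. An exact two-sided permutation test of 1 gene over 3 against 3 libraries cannot give a p below 0.1, so single genes rest on the fit across genes. Nothing in the labels says that the 3 samples of a group came from separate cultures, so the p-values measure only the spread between these samples, which may be technical. The median log2 ratio of the members to the control mean was -0.16 in treated replicate 1, -0.11 in replicate 2 and -0.05 in replicate 3. The counts are from RNA purified on poly-T beads after the reaction, and in them fewer molecules of an mRNA and fewer intact molecules cannot be told apart.

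**Figure D1:**
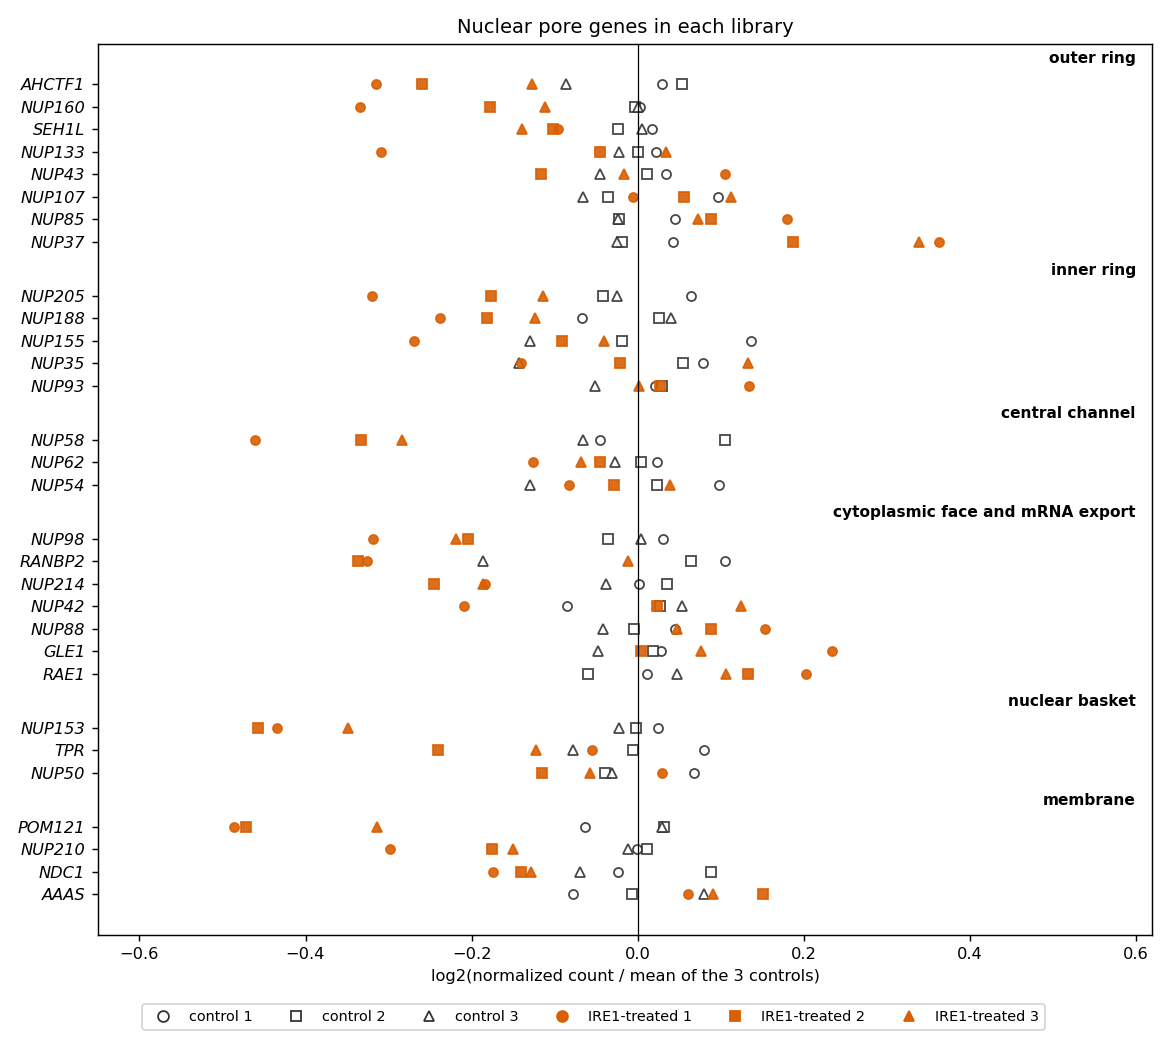
Values of the 30 nuclear pore genes in each library, as log2 of the normalised count over the mean of the 3 controls (horizontal axis), by role and by fold change. Open symbols are controls and filled symbols IRE1-treated libraries, with the replicate number given by the shape. The treated libraries of POM121, NUP153 and NUP58 all lie left of the controls, and those of NUP37 all lie right.

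The members that were lower had long transcripts. Among the 8 members with a canonical transcript under 3000 bases, none was lower and 1 was higher, where 1.19% of the 6901 tested genes of that length were lower and 18.6% higher. Among the 11 members of 3000 to under 6000 bases, 4 were lower and none higher, against 14.8% lower and 2.83% higher of 4769 genes. Among the 11 members of 6000 bases or more, 6 were lower and none higher, against 41.2% lower and 1.70% higher of 2356 genes. The median log2 fold changes of these classes were 0.05, -0.10 and -0.21 in the members and 0.12, -0.07 and -0.23 in all tested genes. Spearman's correlation between length and log2 fold change was -0.61 over the 30 members and -0.65 over 12182 tested protein-coding genes, which are not independent replicates.

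**Figure D2:**
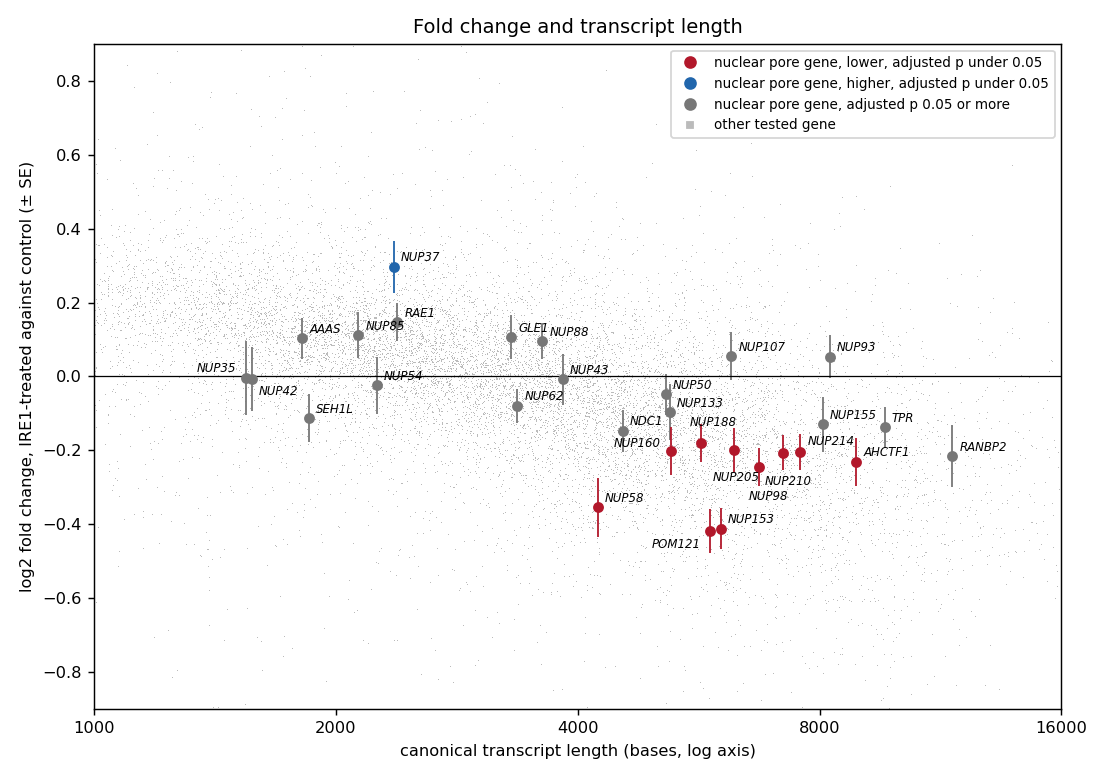
Log2 fold change (IRE1-treated against control, with the standard error) against the length of the canonical transcript in bases, on a log axis, for the nuclear pore genes and for the other tested genes (grey). All members of 6000 bases or more lie below 0 except NUP107 and NUP93 (both just below 0 when library size alone is used), and other genes beyond the axes are not shown.

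The members that were lower mostly had long coding sequences, by a division made after the values were seen. Of 13 members with a coding sequence of 3000 bases or more, 9 were lower and none higher, against 43.8% of the 1770 tested genes of that kind, of which 0.339% were higher. Of the 17 members with a shorter coding sequence, 1 was lower and 1 higher, against 8.95% and 13.2% of 10426 genes. The Spearman correlation with the coding length was -0.67 over the members and -0.52 over all tested protein-coding genes. With the length of the 3′ UTR it was -0.17 over the members and -0.48 over all. NUP107 and NUP93, which have transcripts of 6213 and 8234 bases but coding sequences of 2775 and 2457 bases, had log2 fold changes of 0.05 and 0.05, while the 1246 tested genes with this combination had a median of -0.16.

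**Figure D3:**
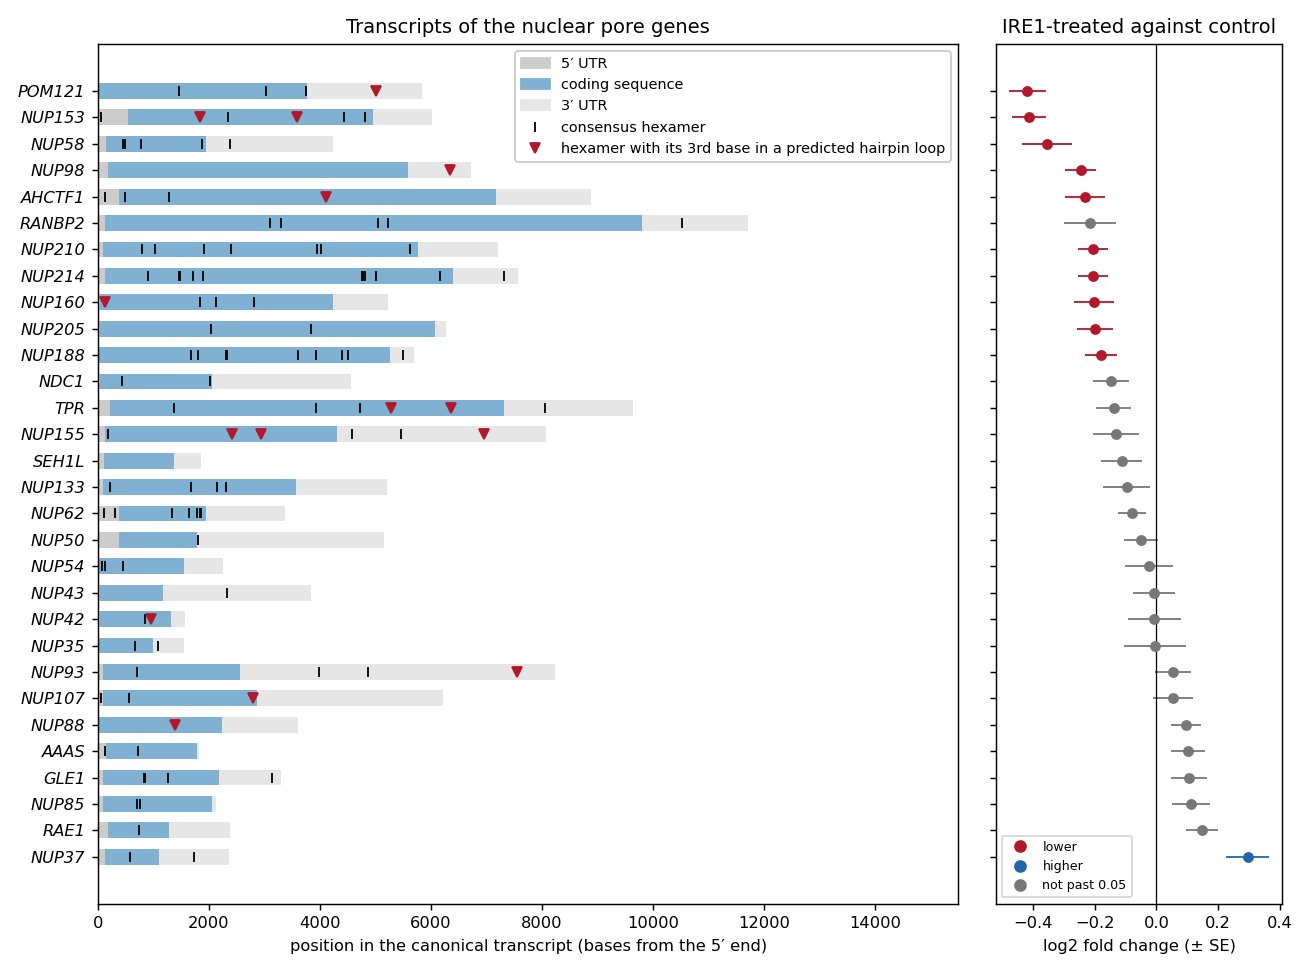
Canonical transcripts of the members in order of fold change, drawn to scale from the 5′ end, with coding sequence, UTRs and the consensus hexamers marked. Triangles are hexamers whose base 3 lies in a predicted hairpin loop, and the right panel gives the log2 fold change with its standard error. POM121, NUP153, NUP98, AHCTF1 and NUP160 are members that were lower and have triangles, and NUP42, NUP88, NUP93, NUP107, NUP155 and TPR have them without being lower.

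Hairpin sites were present in members that were lower and in members that were not. Of the 11 members with a hairpin site 5 were lower and none higher, and of the 19 without one 5 were lower and 1 was higher. Of 4924 tested transcripts with a hairpin site 18.5% were lower and 5.81% higher, and of 7258 without one 10.9% were lower and 15.1% higher. The median transcript length was 6213 bases in the members with a site and 3831 in those without. NUP58, NUP210, NUP214, NUP205 and NUP188 were lower without a hairpin site, although NUP214 has 11 hexamers and NUP188 has 9. By the same rule no hairpin site was found in the canonical transcripts of BLOC1S1, IRF4 and PRDM1, which all have the hexamer. The paper describes the consensus sequence within a stem-loop in these mRNAs. The canonical transcript of XBP1, which encodes 376 residues, had no hexamer. The paper reports the consensus in XBP1 mRNA, from which IRE1 removes an intron. Whether the canonical transcript is the form without that intron was not examined, so XBP1 does not test the rule. Because the rule missed BLOC1S1, IRF4 and PRDM1, the split by hairpin site cannot show which mRNAs IRE1 recognises. The Spearman correlation between the fold change and the number of hexamers was -0.47 over the members and -0.34 over all tested protein-coding genes, and with the number per kb it was 0.04 over the members.

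Members with many FG dipeptides included the lowest ones, but not all were low. The 12 members with at least 5 FG dipeptides in the translated canonical transcript, a bound set after the counts were seen, had a median log2 fold change of -0.21, and 6 were lower and none higher. The other 18 had a median of -0.01, with 4 lower and 1 higher, where all tested genes had 12.4% lower and 10.3% higher. The median transcript length was 5496 bases in the first set and 4519 in the second. NUP214 has 44 FG dipeptides, NUP98 40, NUP153 29, POM121 24, RANBP2 22 and NUP58 14, and their log2 fold changes lay between -0.42 and -0.21. NUP42 has 12, NUP54 9, NUP62 6 and NUP50 5, with log2 fold changes of -0.08 to -0.0072 that did not pass the test. The bound also takes in NUP210 and NDC1, with 5 each, which are membrane proteins of the pore.

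The basket and membrane members included the 2 largest decreases. NUP153, an FG nucleoporin of the nuclear basket (ENSG00000124789, chr6:17615266-17707156, minus strand), had 1397, 1372 and 1352 normalised counts in the control libraries and 1016, 1001 and 1078 in the IRE1-treated libraries. The treated libraries were all below the controls, with a wide gap between the groups. Its mean fell to 1032 ± 40.9 from 1373 ± 22.8 (SD, n = 3), a log2 fold change of -0.41 ± 0.05 (SE, edgeR adjusted p = 1.80e-04). POM121, a membrane nucleoporin that carries FG repeats (ENSG00000196313, chr7:72349920-72421979, plus strand), had 1439, 1538 and 1536 in the controls and 1074, 1085 and 1210.2 in the treated libraries. No treated value reached the lowest control. Its mean fell to 1123 ± 75.6 from 1505 ± 56.5 (SD, n = 3), a log2 fold change of -0.42 ± 0.06 (edgeR adjusted p = 3.00e-04). POM121 shares sequence with related genes. POM121B had 47 to 120 counts per library and a log2 fold change of -0.59 (edgeR adjusted p = 0.0311), so reads of the POM121 family may be split between them. POM121C, also of this family, had no matching identifier, so how its reads bear on the POM121 count could not be examined.

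NUP210, a membrane glycoprotein of the pore (ENSG00000132182, chr3:13357735-13461822, minus strand), was the member with most counts. It had 16848, 16990.1 and 16725 in the controls and 13709, 14925 and 15193 in the treated libraries. The highest treated library lay below the lowest control. The log2 fold change was -0.21 ± 0.05 (edgeR adjusted p = 0.00648). NDC1, a transmembrane anchor, had -0.15 (edgeR adjusted p = 0.0757), with its treated libraries below the controls, and AAAS, the protein mutated in triple A syndrome, had 0.10 (edgeR adjusted p = 0.210) with overlapping groups. The remaining basket members were TPR, the scaffold of the basket filaments, at -0.14 (edgeR adjusted p = 0.0901) and NUP50, a partner of NUP153 and importin alpha, at -0.05 (edgeR adjusted p = 0.579).

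In the central channel, NUP58 was lower, while its partners NUP62 and NUP54, which form a coiled-coil complex with it, did not pass the test. NUP58 (ENSG00000139496, chr13:25875662-25939528, plus strand) had 493, 547 and 486 normalised counts in the controls and 369.5, 404 and 418 in the treated libraries. The groups did not overlap. Its mean fell to 397 ± 24.7 from 509 ± 33.3 (SD, n = 3), a log2 fold change of -0.35 ± 0.08 (edgeR adjusted p = 0.00569). NUP62 had -0.08 (edgeR adjusted p = 0.242), with the treated libraries below the controls by a small margin, and NUP54 had -0.02 (edgeR adjusted p = 0.862).

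On the cytoplasmic face and in mRNA export, NUP98 and NUP214 were lower. NUP98, an FG nucleoporin whose gene also encodes the outer ring protein NUP96 (ENSG00000110713, chr11:3692313-3819022, minus strand), had 2178, 2081 and 2139 in the controls and 1709.7, 1852 and 1832 in the treated libraries. All treated libraries were lower than all controls. The log2 fold change was -0.25 ± 0.05 (edgeR adjusted p = 0.00319). NUP214, the FG nucleoporin of the cytoplasmic filaments, had 2069, 2118 and 2012 in the controls and 1819, 1743 and 1815 in the treated libraries, again without overlap. Its log2 fold change was -0.21 ± 0.05 (edgeR adjusted p = 0.00773). RANBP2, the largest nucleoporin and a SUMO ligase of the filaments, had -0.22 ± 0.08 (edgeR adjusted p = 0.0761), and its groups overlapped. The genes of the related RGPD family had at most 35 counts in any library. RAE1, an mRNA export factor bound to NUP98, had 0.15 (edgeR adjusted p = 0.0518) with all treated libraries above the controls. NUP88, the partner of NUP214, was at 0.10 (edgeR adjusted p = 0.186). GLE1, the activator of the export helicase, was at 0.11 (edgeR adjusted p = 0.214). Its partner NUP42 was at -0.0072 (edgeR adjusted p = 0.965).

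In the outer ring (the Y complex), NUP160 and AHCTF1 were lower and NUP37 was higher. NUP37 (ENSG00000075188, chr12:102466881-102513898, minus strand), a beta-propeller subunit, had 573, 549 and 547 normalised counts in the controls and 715, 633 and 703 in the treated libraries. All treated libraries lay above the controls. Its mean rose to 684 ± 44.3 from 556 ± 14.4 (SD, n = 3), a log2 fold change of 0.30 ± 0.07 (edgeR adjusted p = 0.00686). AHCTF1 (ELYS), which tethers the pore to chromatin after mitosis, had 1072, 1089.9 and 989 in the controls and 845, 877 and 962 in the treated libraries, with a log2 fold change of -0.23 ± 0.07 (edgeR adjusted p = 0.0189). The highest treated library lay just below the lowest control. NUP160, an arm subunit of the Y, had 964, 959.7 and 963 against 763, 851 and 891, with -0.20 ± 0.06 (edgeR adjusted p = 0.0344). The other 5 outer ring members had log2 fold changes of -0.11 (SEH1L) to 0.11 (NUP85), none past the threshold.

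In the inner ring, the large solenoid proteins NUP205 and NUP188 were lower, and the smaller NUP93, NUP155 and NUP35 were not past the threshold. NUP205 had 1809, 1680.2 and 1701 in the controls and 1386, 1530.2 and 1599 in the treated libraries, without overlap. The log2 fold change was -0.20 ± 0.06 (edgeR adjusted p = 0.0239). NUP188 had 2531, 2699 and 2726 in the controls and 2248, 2339 and 2434 in the treated libraries, with -0.18 ± 0.05 (edgeR adjusted p = 0.0204). NUP155 had -0.13 (edgeR adjusted p = 0.235), NUP93 0.05 (edgeR adjusted p = 0.557) and NUP35 -0.0034 (edgeR adjusted p = 0.987).

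Some calls depended on single libraries. Without control replicate 2 the number of members that were lower was 4 (POM121, NUP153, NUP98 and NUP210), and without IRE1-treated replicate 2 it was 6. Without IRE1-treated replicate 1, the library that stood apart, it was 10, and NUP160 was no longer among them (log2 fold change -0.14, edgeR adjusted p = 0.0993) while TPR was (-0.18, edgeR adjusted p = 0.00706). NUP58 had edgeR adjusted p = 0.0511 without control replicate 2, and NUP214 had 0.0632. AHCTF1 had edgeR adjusted p of 0.0877, 0.104 and 0.0813 without control replicate 1, control replicate 2 and treated replicate 2. NUP205 missed the threshold without each control and without treated replicate 2 (edgeR adjusted p of 0.0578 to 0.134), NUP188 without control replicates 2 and 3 and treated replicate 2 (0.0700 to 0.107), and NUP160 in every such fit but the one without treated replicate 3 (0.0804 to 0.110). RANBP2 was lower without control replicate 3 (edgeR adjusted p = 0.0314) and without treated replicate 3 (6.36e-04), and RAE1 was higher without treated replicate 3 (0.0230).

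When a smooth trend with transcript length and GC content, fitted in every library, was taken out, the result changed more. The trend was fitted in the treated libraries too, so a loss through the enzyme that grows with length would be taken out with it. In this setting such a loss and other trends with length cannot be told apart. The members then numbered 4 lower and 4 higher, with 15 values below 0 and 15 above. Of all tested genes 581 were lower and 1009 higher in that setting. Of the 10 members that were lower, POM121 (-0.29, edgeR adjusted p = 0.00274), NUP153 (-0.23, edgeR adjusted p = 0.00397) and NUP58 (-0.24, edgeR adjusted p = 0.0362) remained so, and SEH1L (-0.20, edgeR adjusted p = 0.0433) was added. NUP98, NUP210, NUP214, NUP160, NUP205 and NUP188 lay between -0.06 and -0.0035, and AHCTF1 at 0.05. NUP37 stayed higher (0.28, edgeR adjusted p = 0.00927), and NUP93 (0.29), NUP107 (0.26) and NUP88 (0.16) were higher in that setting (edgeR adjusted p of 0.00516, 0.00625 and 0.0449). The FG content then had a Spearman correlation of -0.56 with the fold change over the 30 members, against -0.33 before. This was the largest in size among several properties compared. In that setting the length of the 3′ UTR had 0.45, hexamers per kb -0.31, transcript length 0.28 and GC content -0.24. No such value was computed over all tested genes.

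**Figure D4:**
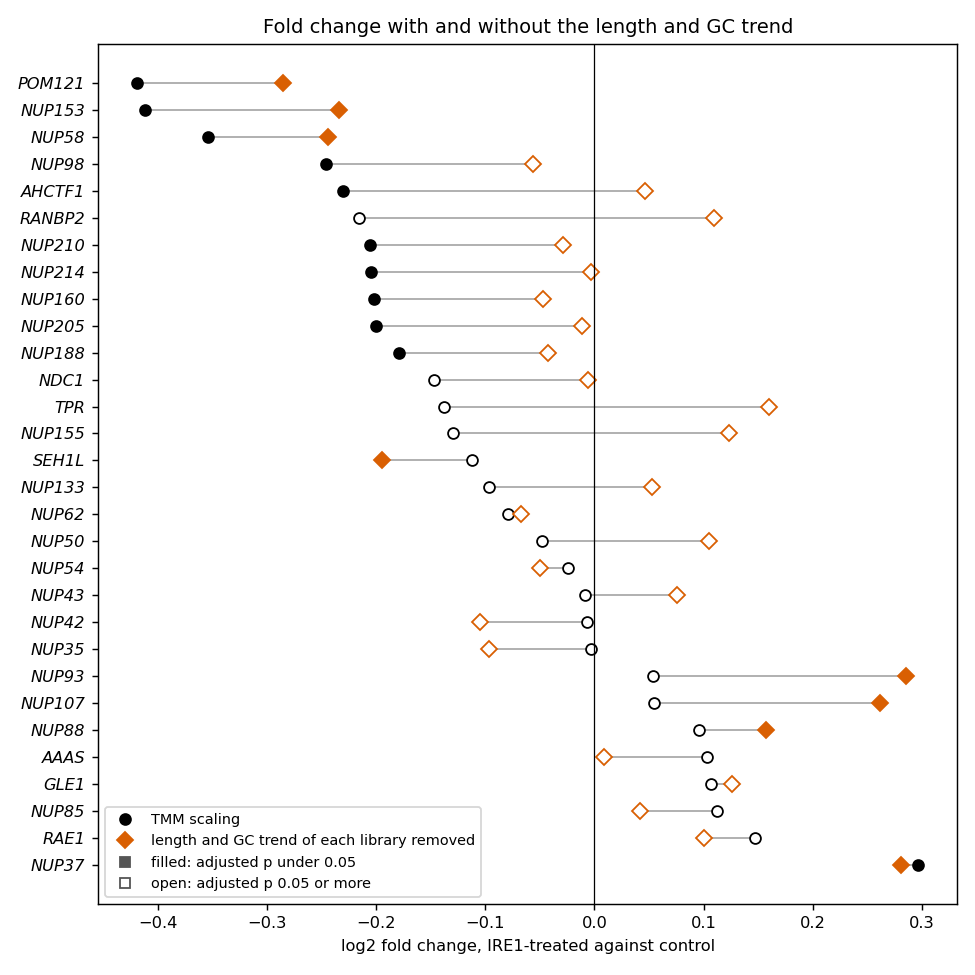
Log2 fold change of each member with TMM scaling (circles) and with the length and GC trend removed (diamonds), in order of the first. Filled symbols have an adjusted p under 0.05. POM121, NUP153, NUP58 and NUP37 are filled in both, and the other members that were lower are filled only as circles.

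The levels per length of the members differed widely in the control libraries. The members had 9.90 to 196 TPM (counts per length of the canonical transcript, scaled to the same total in every library over the tested genes), with a median of 23.0 against 9.88 over tested genes. NUP210 was the highest at 196 ± 3.45 (SD, n = 3), 2.18 times the next member, and took 28.1% of all member counts. NUP62 followed at 89.8 ± 2.40, then AAAS at 64.5 ± 3.06, RAE1 at 60.4 ± 1.75 and NUP88 at 54.7 ± 2.07. AHCTF1 was lowest at 9.90 ± 0.604. Of the 29 pairs of neighbours in this order 19 had overlapping control ranges, so only 10 steps of the order were outside the spread. The Spearman correlation between this level and the log2 fold change was 0.29 over the members.

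**Figure D5:**
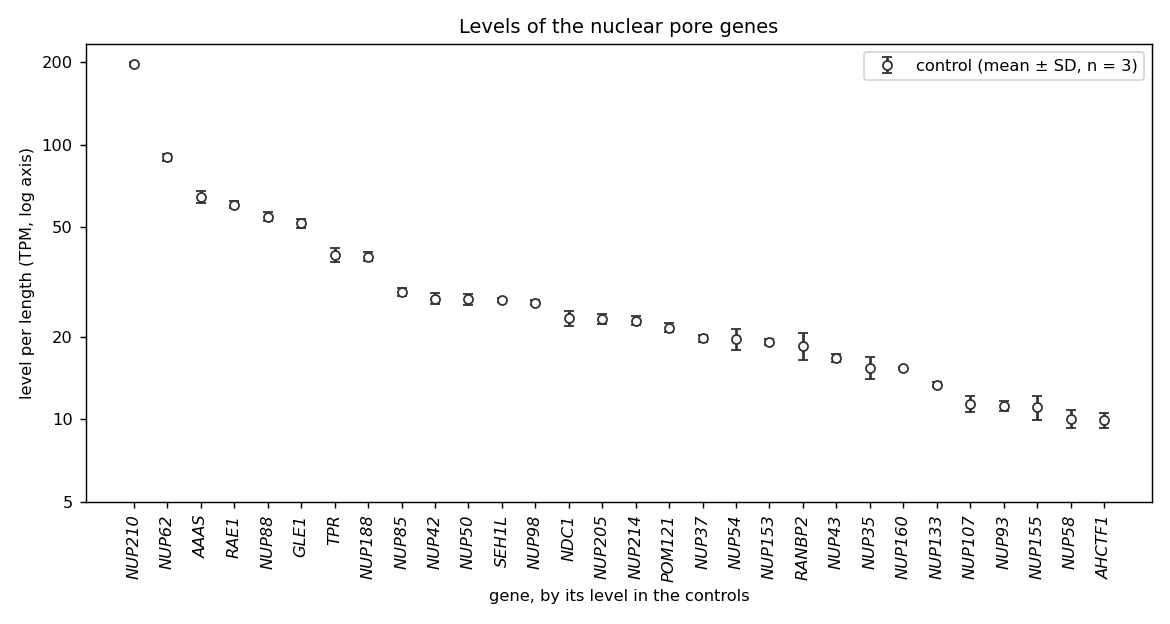
Level per length of each member in the control libraries (TPM, log axis; mean and SD over 3 libraries), in descending order. NUP210 lies well above the rest, and most neighbours lie within each other's spread.

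Other genes share exon positions with members, and the strand setting of the counting is not given in the sources used here. On the opposite strand, NUP153-AS1 had 83 to 123 counts and a log2 fold change of 0.28 (edgeR adjusted p = 0.174), and NSUN5P2, which overlaps POM121, had 141 to 224 counts and 0.12 (edgeR adjusted p = 0.483). PGAP2, opposite NUP98, had 581 to 850 counts and 0.09 (edgeR adjusted p = 0.370). The gene opposite NUP37 had no count. Opposite NUP188, SH3GLB2 had 2954 to 3680 counts, 132% of those of NUP188, with 0.09 (edgeR adjusted p = 0.231). Opposite members that were not past the threshold, ATF5 (NUP62) had 44189 to 51901 counts, PCMT1 (NUP43) 793 to 1042 and RABEP1 (NUP88) 720 to 1158. RPAIN, also opposite NUP88, had 554 to 753 counts and was higher, at 0.24 (edgeR adjusted p = 0.0369). Their part in the counts of the members was not tested. On the same strand, the largest partner of a member was IL4I1, with 75 to 104 counts beside NUP62.

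The soluble transport factors, which carry cargo through the pore, were listed as 40 genes, and 12 were lower and 5 higher by the same test, with a median log2 fold change of -0.05. These are 30.0% and 12.5%, against 12.4% and 10.3% of all tested genes. Of 6 importin alphas, the adaptors that read nuclear localization signals, 3 were lower. Of 12 importin beta family receptors 5 were lower, and of 6 exportins with XPO symbols 4 were lower. An exportin without such a symbol, which was not past the threshold, was counted with the importin beta family. No member of these groups was higher. Their transcripts are long, with medians of 7121, 5129 and 5155 bases, and of tested genes with 3000 to under 6000 bases 14.8% were lower, and with 6000 or more 41.2%. XPO4, an exportin, had 329, 306 and 303 normalised counts in the controls and 215, 234 and 222 in the treated libraries, with a log2 fold change of -0.48 ± 0.09 (edgeR adjusted p = 0.00186). IPO7, an importin for ribosomal and histone cargo, had -0.42 (edgeR adjusted p = 3.37e-04) and IPO8 had -0.38 (edgeR adjusted p = 0.00718). KPNA3, an importin alpha, had -0.42 (edgeR adjusted p = 0.0338), with a treated spread of 168 to 284 and values below the controls. Among the 5 that were higher, RANBP1, a cofactor of Ran GTPase activation, had 3021, 2887 and 2973 in the controls and 4785, 3600.5 and 3528 in the treated libraries, with 0.42 ± 0.09 (edgeR adjusted p = 0.00282). RAN, the GTPase that gives transport its direction, had 0.25 (edgeR adjusted p = 0.00165), and ENY2, of the mRNA export complex TREX-2, had 0.31 (edgeR adjusted p = 0.00403). The annotation holds 9 pseudogenes named after RAN, so its count is less certain than that of the others. Of the transport factors 6 were lower when control replicate 2 was omitted and 7 when IRE1-treated replicate 2 was omitted, and 3 were higher with any single control left out and 8 without IRE1-treated replicate 3. Without IRE1-treated replicate 1, the log2 fold change of RANBP1 was 0.27 and that of KPNA3 was -0.25. With single libraries left out, KPNA3 kept its call in 1 fit of 6, the one lacking IRE1-treated replicate 3, and IPO8 in 5 (edgeR adjusted p = 0.0510 without control replicate 2). With the length and GC trend removed, XPO4 had -0.18 (edgeR adjusted p = 0.248), IPO8 -0.22 (0.0568) and KPNA3 -0.31 (0.113). In that setting IPO7, RANBP1, RAN and ENY2 were still past the threshold in the same direction.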

How the data were processed

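RNA-seq libraries of 3 IRE1-treated and 3 control samples were analysed. Per the labels and the study's methods, the authors used cutadapt 1.12 for trimming, STAR 2.5.3a for alignment to GRCh37 and HTSeq 0.6.1p1 for counting on Ensembl genes. Which strand and overlap settings HTSeq had is not given in the sources used here. The authors deposited raw counts per gene for each library, and a table of normalized CPM, which served only in an alternative. The 5 summary lines of HTSeq, which name no gene, held 21.4 to 23.2% of all counts and were left out. Of 24945 genes with a count, 14398 passed edgeR's filter. From these counts, edgeR 4.0.16 (R 4.3.3) was run with TMM scaling, the quasi-likelihood test and Benjamini-Hochberg adjustment at 0.05, all 6 libraries in 1 fit without covariates. Normalised counts are counts divided by the effective library size (size multiplied by the TMM factor) and multiplied by the mean effective size. Every nuclear pore gene of the list could be named, and, of the transport factors, the 4 lowest and 4 highest past the threshold. Some items that these rules or lists name are not reported here. Sites printed are the hairpin sites of members that were lower, and NUP93 was added after its values were seen. Members and lists were chosen with earlier results of these data known. GENCODE release 44 on GRCh37 gave the gene names, transcripts and sequences. Windows were folded with ViennaRNA 2.7.2. Alternatives were DESeq2 1.42.0, upper quartile scaling, library size without TMM, no filter, at least 10 counts in every library, limma 3.58.1 on log2(CPM + 1), the replicate number as a block, removal of a loess trend (span 0.5) with length and GC content, both of these combined, and each library in turn left out. The fit was tested on simulated counts, and the search for hairpins on made-up hairpins with stems of G and C only. The latter test does not show how the search performs on real substrates such as BLOC1S1, in which it found no hairpin site. Every pair of libraries differed by more than sampling noise. The depth is given with the results, and counting error is part of the fit.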

Additional observations from a re-analysis of the deposited data

How the results depend on the processing

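The number of nuclear pore genes that were lower was 9 to 14 under DESeq2, library size only, upper quartile scaling, both filters, limma on CPM and the replicate block, and 4 to 11 with each library left out. With the length and GC trend removed it was 4, and 2 when the replicate block was added, NUP58 having edgeR adjusted p = 0.0503 there. The number that was higher was 2 with upper quartile scaling, with at least 10 counts in every library and with limma on CPM (RAE1 joining NUP37), 1 to 2 with each library left out, and 4 with the trend removed, with or without the block. The median log2 fold change of these genes was -0.18 with library size only and -0.12 to -0.07 with each library left out, and it reversed to 0.0026 with the trend removed and 0.0019 with the block added. Of the transport factors, 4 were lower with the trend removed and 3 with the block added, and 6 to 13 with each library left out. The number of them that was higher was 3 with library size only and 3 to 8 with each library left out. Their median was -0.13 with library size only, 0.054 with the trend removed and 0.054 with the block added, and -0.08 to -0.04 with each library left out. NUP153 and POM121 (lower) and NUP37 (higher) passed the threshold in all 15 alternatives.

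With the trend removed, and with the block added to it, the signs reversed for AHCTF1 (0.047 and 0.047), NUP133 (0.053 and 0.046), NUP155 (0.12 and 0.13), NUP43 (0.076 and 0.078), NUP50 (0.10 and 0.11), RANBP2 (0.11 and 0.11) and TPR (0.16 and 0.16). With library size only, NUP107 (-0.020) and NUP93 (-0.023) reversed. With each library left out, NUP35 ranged from -0.075 to 0.059, NUP42 from -0.077 to 0.081, NUP43 from -0.062 to 0.044 and NUP54 from -0.084 to 0.028. The cause of these changes was not tested.

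Nothing in the labels says that the replicate numbers of the groups mark pairs. The deviations of same-numbered libraries had correlations of -0.04, -0.01 and -0.11, and those of differently numbered libraries lay between -0.06 and 0.09. Such values cannot show whether the samples were prepared in pairs. With the replicate block 9 nuclear pore genes were lower, NUP160 being lost (edgeR adjusted p = 0.0579), and 1 was higher, while 11 and 5 transport factors were lower and higher with the replicate block and the medians were -0.11 and -0.06. Over all tested genes, 1496 were lower and 1117 higher with the block, and 491 and 883 with the block and the trend removed. With a library left out, 972 to 2221 were lower and 638 to 2091 higher, the lowest being without control replicates 1 and 2. Small changes of members with few counts, such as NUP35 with 257 to 312 normalised counts per library, were limited by depth.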
